A study of Drosophila melanogaster with 46 samples.

Results

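Genes that encode RNA-binding proteins of neurons were followed in the larval central nervous system (CNS) of *Drosophila melanogaster* carrying a *Tet* allele without enzymatic activity: *elav*, *fne*, *Rbp9*, *Fmr1*, *pum*, *orb2*, *mbl* and *shep*. They were picked by name as the neuronal Hu family, translational repressors and splicing or related factors, and make up 8 of the 17490 gene rows in the expression table. A mutant and a wild-type genotype were compared by RNA-seq in larvae of the third instar. Tet CD animals carry a double point mutation in the iron-binding motif of the *Tet* catalytic domain, which leaves the gene in place. The paper lists this allele as Tet CD-GFP, a knock-in that also carries a GFP tag. Wild-type animals were of the *w1118* line (WT), which has no such tag. The tag and the point mutation cannot be told apart in this comparison. Each genotype had 4 libraries, described as biological replicates, and each library was made from pooled RNA of 30 brains. Depth estimated from the smallest steps between low values was about 17900000 to 19300000 counted reads in Tet CD and 17500000 to 32600000 in WT. Between libraries of 1 genotype, the correlation across genes was 0.971 to 0.987 in Tet CD and 0.988 to 0.993 in WT. Tet CD replicates 2 and 3 stood apart in having low values of genes with long 3′ UTRs, and the fold changes of the 8 genes, of *Tet* and of the lower genes named from other lists are also given without them.

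RNA-binding proteins set which exons, which 3′ ends and how much protein a neuron takes from its transcripts. ELAV, its paralogue FNE and RBP9 belong to the Hu family and bind U-rich stretches. ELAV and FNE promote the long 3′ UTRs typical of neuronal mRNAs in flies. FMR1, the fly homologue of the human fragile X protein, Pumilio (PUM) and the CPEB family protein ORB2 act mainly on translation and mRNA stability at synapses and in memory. Muscleblind (MBL) controls alternative splicing, and SHEP (Alan Shepard) is an RNA-binding protein with roles in neuronal remodelling.

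In the dm6 assembly, with positions from the Ensembl annotation of the same assembly, *elav* (FBgn0260400) lies at X:509235-523226, *fne* (FBgn0086675) at X:12917477-12950417 and *Rbp9* (FBgn0010263) at 2L:2954762-2968434. *Fmr1* (FBgn0028734) lies at 3R:10101420-10110121, *pum* (FBgn0003165) at 3R:9066343-9237682 and *orb2* (FBgn0264307) at 3L:8937100-8954463. *shep* (FBgn0052423) lies at 3L:5155821-5277944, and the place of *mbl* is given with its values. All 8 are long transcripts. Their merged exons each exceeded 4146 bases, the lower limit of the fifth of the tested genes with the longest exons, where the median of all genes was 2078 bases. All 8 had an exon GC content below the median of 48.8%. Their longest annotated 3′ UTRs ran to 8557 bases in *elav*, 5828 in *shep*, 5791 in *orb2*, 5609 in *mbl*, 5048 in *Rbp9*, 4927 in *fne*, 4602 in *pum* and 1812 in *Fmr1*. The median over the 8549 tested genes that have a 3′ UTR was 325 bases.

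Because the long 3′ UTR was the feature the genes shared most clearly, short windows of it are shown for *elav*, *fne* and *shep*. Each holds the first match after the stop codon to a run of 7 T (a U-rich stretch in RNA) or, for *elav*, to the Pumilio motif TGTANATA as well. The windows are 28 bases of the transcribed strand, 5′ to 3′, read from the RefSeq sequence of the dm6 assembly, with the match in capitals. They begin 10 bases before matches at base 2172 (*elav*, run of T), base 5843 (*elav*, Pumilio motif), base 576 (*fne*) and base 1266 (*shep*) of the 3′ UTR. In this order they lie at X:515603-515630 (minus strand), X:511932-511959 (minus strand), X:12946056-12946083 (plus strand) and 3L:5160366-5160393 (minus strand).
elav, run of T: tatatatataTTTTTTTttataattata
elav, Pumilio motif: ataatgattgTGTACATAtttgattgat
fne, run of T: atagtaactaTTTTTTTttttttaaact
shep, run of T: agatctttggTTTTTTTctctccatttg

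Among the 112 tested genes with at least 4500 bases of 3′ UTR, 80.4% held TTTTTTT within the first 4500 bases on the transcribed strand, as did all 7 of the genes of that length described here. The number of matches was 11 in *fne*, 9 in *orb2*, 7 each in *elav*, *Rbp9* and *shep*, and 4 each in *pum* and *mbl*, against a median of 4 per gene. TGTANATA was found in the same stretch of 63.4% of those genes and in 3 of the 7, *pum*, *orb2* and *mbl*. The *elav* match shown above lies beyond it. In the first 500 bases, which also take in *Fmr1*, TTTTTTT occurred in 17.1% of 3254 genes and in *orb2*, and TGTANATA in 19.0% and in *mbl*. These matches describe letters in a window and not sites of binding.

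All 8 genes had a lower mean in Tet CD than in WT, as did 51.4% of the 9357 genes tested. Their log2 fold changes ran from -1.28 (*shep*) to -0.17 (*Fmr1*) and had a median of -0.63, against a median of -0.0061 over all genes. Leaving out Tet CD replicate 2 brought the median of the 8 to -0.41, and leaving out both replicates 2 and 3 to -0.17. It was -0.16 with the trend over 3′ UTR length removed. The test across all genes used limma on log2(RPKM + 0.5), with p adjusted after Benjamini and Hochberg, and a call needed both an adjusted p below 0.01 and a difference above 1.2-fold. None of the 8 was called by limma, while 1.35% of all genes were called lower and 1.16% higher. At an unadjusted p below 0.05, 7 of the 8 were lower, where 13.9% of all genes were. Of the 112 tested genes with a 3′ UTR of at least 4500 bases, 63.4% were. At an adjusted p below 0.05 with the same fold, 2 of the 8 were lower, *fne* and *shep*, where 3.74% of all genes were. Every Tet CD library lay below every WT library for 5 of the 8 genes (*elav*, *fne*, *orb2*, *mbl* and *shep*), which held for 9.42% of all genes. For each of these 5 the two-sided exact permutation test gave p = 0.0286, the smallest value that 70 arrangements of the libraries can give. In these bulk samples, fewer cells of a type and less RNA per cell cannot be told apart.

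**Figure D1:**
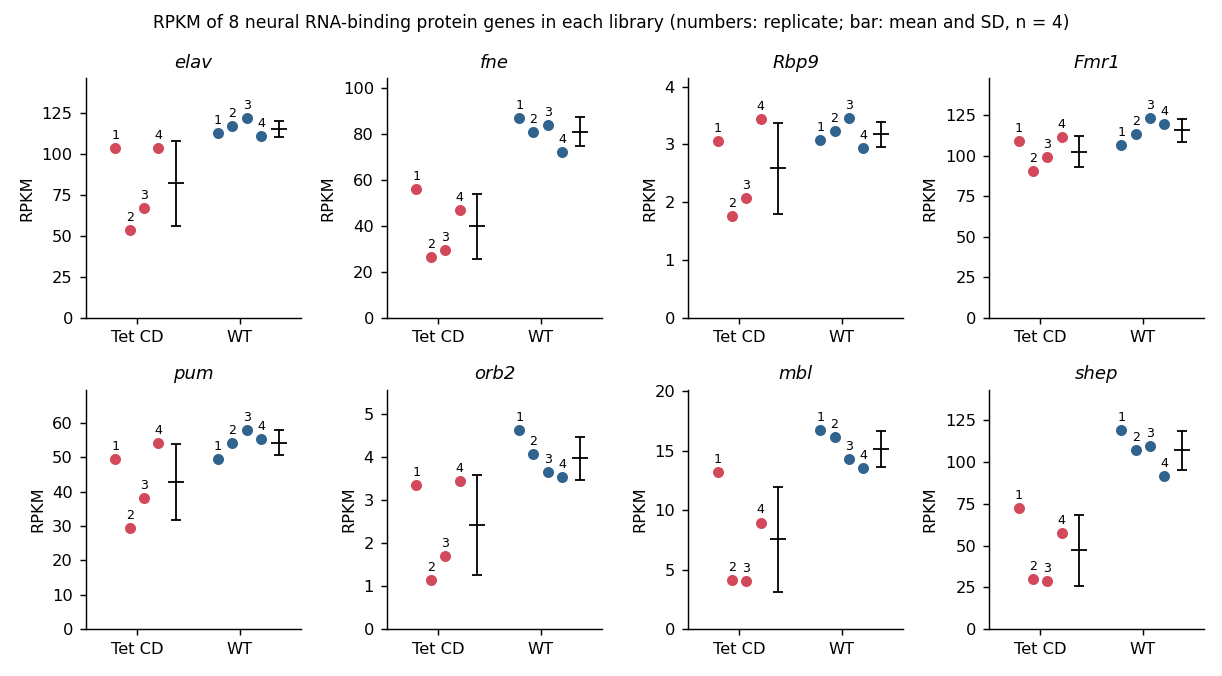
RPKM (reads scaled to exon length and sequencing depth) of the 8 genes in the 4 Tet CD and 4 WT libraries, with points numbered by replicate and a bar for the mean and SD (n = 4). In every panel the points 2 and 3 of Tet CD are the lowest, and the groups do not overlap for elav, fne, orb2, mbl and shep.

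*elav*, the pan-neuronal member of the Hu family, had 104, 53.4, 67.3 and 104 RPKM in Tet CD replicates 1 to 4, against 113, 117, 122 and 111 RPKM in the WT replicates. The groups did not overlap, but Tet CD replicates 1 and 4 still held 89.7% and 89.8% of the WT mean. The means were 82.1 ± 25.8 RPKM in Tet CD and 116 ± 4.93 RPKM in WT (SD, n = 4 each), a log2 fold change of -0.55 with an SE of 0.195 (limma, adjusted p = 0.106).

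*fne*, whose protein can take over ELAV functions in neurons, had 56.1, 26.2, 29.4 and 47.0 RPKM in Tet CD and 86.7, 80.7, 83.6 and 72.0 RPKM in WT. Each Tet CD library was clearly below the lowest WT library. The means were 39.7 ± 14.3 RPKM in Tet CD and 80.7 ± 6.32 RPKM in WT (SD, n = 4 each), so Tet CD held 49.1% of the WT mean. The log2 fold change was -1.08 (SE 0.217, 95% interval -1.57 to -0.60, limma, adjusted p = 0.0181).

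*Rbp9*, the remaining Hu family gene, was the least expressed of the family. It had 3.06, 1.77, 2.07 and 3.44 RPKM in Tet CD, against 3.07, 3.23, 3.45 and 2.94 RPKM in WT. Tet CD replicates 2 and 3 were the lowest libraries, whereas replicates 1 and 4 lay within the WT range. The log2 fold change was -0.29 with an interval of -0.69 to 0.12 (limma, adjusted p = 0.324; exact permutation p = 0.257). The lowest library held about 274 reads of the gene.

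Of the translational repressors, *Fmr1* and *pum* overlapped between the groups. *Fmr1* had 109, 90.4, 99.0 and 111 RPKM in Tet CD, against 106, 113, 123 and 119 RPKM in WT. Tet CD held 88.7% of the WT mean, the smallest difference of the 8 genes. The log2 fold change was -0.17 (interval -0.34 to -0.0036, limma, adjusted p = 0.168; exact permutation p = 0.114). *pum* had 49.5, 29.5, 38.3 and 54.1 RPKM in Tet CD and 49.5, 54.2, 58.1 and 55.4 RPKM in WT. Replicates 1 and 4 of Tet CD again sat among the WT libraries, and the log2 fold change was -0.37 (SE 0.166, limma, adjusted p = 0.176; exact permutation p = 0.0857).

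*orb2*, the CPEB gene needed for long-lasting memory in flies, had 3.343, 1.145, 1.708 and 3.454 RPKM in Tet CD, against 4.639, 4.081, 3.643 and 3.525 RPKM in WT. The groups did not overlap, though the highest Tet CD library and the lowest WT library were close together. The means were 2.41 ± 1.16 RPKM in Tet CD and 3.97 ± 0.505 RPKM in WT (SD, n = 4 each), a log2 fold change of -0.71 with an interval of -1.32 to -0.10 (limma, adjusted p = 0.128). About 196 reads covered the gene in its lowest library.

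The splicing regulator *mbl* and *shep* had the 2 lowest fold changes of the 8 genes. *mbl* (FBgn0265487), at 2R:17216549-17379376, had 13.2, 4.08, 4.01 and 8.96 RPKM in Tet CD, against 16.8, 16.1, 14.3 and 13.5 RPKM in WT, with Tet CD replicate 1 just under the WT range. Its means were 7.57 ± 4.42 RPKM in Tet CD and 15.2 ± 1.53 RPKM in WT (SD, n = 4 each). Its log2 fold change of -1.12 had the largest SE of the 8, 0.328 (limma, adjusted p = 0.0629). *shep* had 72.4, 29.9, 28.7 and 57.5 RPKM in Tet CD, against 119.5, 107, 109 and 91.7 RPKM in WT. All 4 Tet CD libraries lay well below the WT range. The means were 47.1 ± 21.5 RPKM in Tet CD and 107 ± 11.5 RPKM in WT (SD, n = 4 each), so Tet CD held 44.0% of the WT mean. The log2 fold change was -1.28 (SE 0.276, interval -1.90 to -0.66, limma, adjusted p = 0.0238).

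Except for *Fmr1*, each of the 8 genes overlaps at least 1 other annotated gene or transposable element insertion, 10 of them in the case of *mbl*. The overlap of *fne* is with an HMS-Beagle element only, and those of *mbl* include a copia and a jockey element. Whether reads were counted by strand was not stated, so reads of overlapping genes or elements may be included in these values.

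In Tet CD the genes differed from one library to the next in the same way. For all 8, the 2 lowest of the 8 libraries were Tet CD replicates 2 and 3. Relative to the WT mean, the median log2 ratio over the 8 genes came to -0.17, -1.27, -0.89 and -0.16 in Tet CD replicates 1 to 4, against 0.03, 0.02, 0.07 and -0.12 in the WT replicates. Taken alone, replicate 2 held 27.9% of the WT mean of *shep*, 26.9% of *mbl*, 32.4% of *fne*, 46.2% of *elav* and 78.3% of *Fmr1*. In replicates 1 and 4 only *fne* and *shep* stayed far from WT in both libraries, at 69.5% and 58.2% of the WT mean for *fne*, and at 67.6% and 53.7% for *shep*. *mbl* was at 87.1% and 59.0%. Without replicates 2 and 3 of Tet CD, an alternative chosen after seeing the data, the log2 fold change was -0.64 for *fne* (limma, adjusted p = 0.00974) and -0.72 for *shep* (adjusted p = 0.0171). The values of *elav* (-0.15), *Fmr1* (-0.07), *pum* (-0.07) and *Rbp9* (0.03) were close to 0. *orb2* had -0.19 (adjusted p = 0.442) and *mbl* -0.46 (adjusted p = 0.14), where all libraries had given -0.71 and -1.12.

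**Figure D2:**
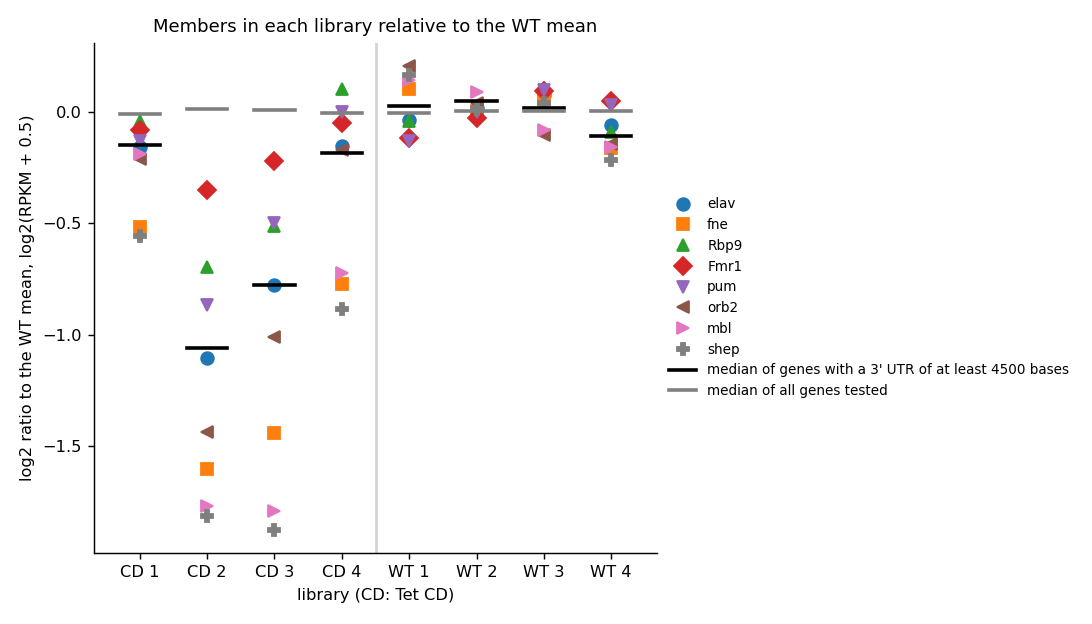
Log2 ratio of each of the 8 genes to its WT mean, on log2(RPKM + 0.5), in each library (CD: Tet CD), with short bars for the median of all genes tested and of the genes with a 3′ UTR of at least 4500 bases. Tet CD replicates 2 and 3 are the lowest libraries for all 8 genes, and the median of the genes with long 3′ UTRs is also low in these libraries (-1.06 and -0.78).

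The lower values of these libraries were graded by 3′ UTR length across the whole table. The 7 genes other than *Fmr1* belong to the 112 tested genes, 1.31% of those with a 3′ UTR, whose longest 3′ UTR has at least 4500 bases, a limit chosen after the lengths of the 8 genes were seen. Over these 112 genes the median log2 ratio to WT came to -0.15, -1.06, -0.78 and -0.19 in Tet CD replicates 1 to 4, against 0.03, 0.05, 0.02 and -0.11 in the WT replicates. In the classes of 1500 to 4499, 500 to 1499 and 1 to 499 bases, the median in Tet CD replicate 2 was -0.46, -0.06 and 0.11. The median log2 fold change was -0.55, -0.18, -0.02 and 0.03 from the longest class to the shortest. Of the longest class, 43.8% had every Tet CD library below every WT library, and 63.4% were lower at an unadjusted p below 0.05 (limma). For 356 genes with exons of at least 4146 bases but a 3′ UTR under 500 bases, the median log2 fold change was 0.03. Their median log2 ratio to WT was 0.11, -0.03, 0.05 and 0.07 in Tet CD replicates 1 to 4. Exon length was not matched between these genes and the longest 3′ UTR class. The part of 3′ UTR length in the values of the 8 genes was not tested beyond the adjustment given next.

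**Figure D3:**
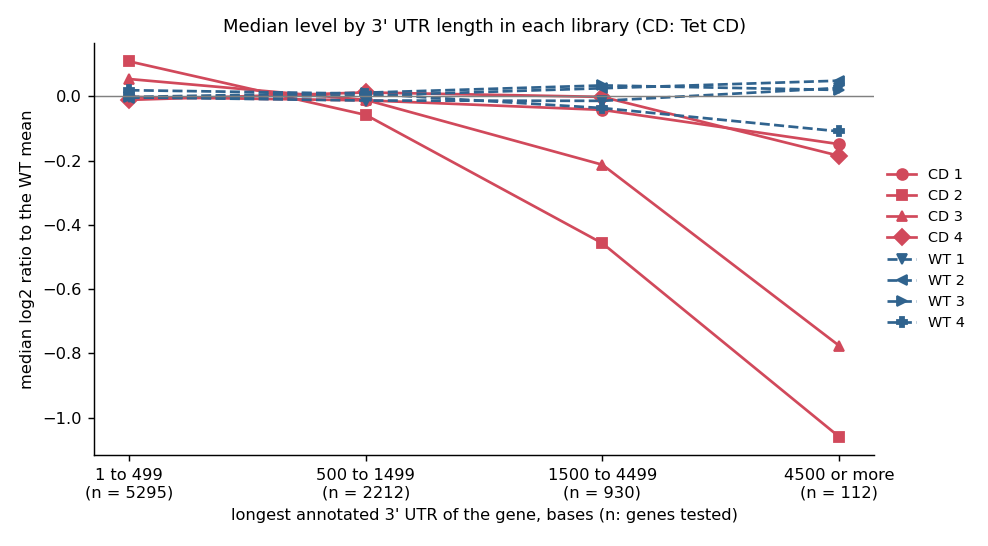
Median log2 ratio to the WT mean in each library (lines; CD: Tet CD) for genes grouped by their longest annotated 3′ UTR in bases, with the number of genes tested under each class. The lines of Tet CD replicates 2 and 3 drop to -1.06 and -0.78 in the longest class, while those of replicates 1 and 4 reach -0.15 and -0.19.

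Within the 112 genes with a 3′ UTR of at least 4500 bases, the 7 genes that belong to them took different ranks. Of the 112 genes, 8.93% had a fold change as low as or lower than *shep*, 15.2% than *mbl*, 17.9% than *fne* and 37.5% than *orb2*, but 49.1% than *elav*, 62.5% than *pum* and 78.6% than *Rbp9*. When the trend over 3′ UTR length was removed from every library, also chosen after seeing the data, *fne* (log2 fold change -0.70, limma, adjusted p = 0.00149) and *shep* (-0.86, adjusted p = 0.00631) were called lower. *mbl* had -0.71 with an adjusted p of 0.0433. *elav* had -0.03 (adjusted p = 0.743), *Fmr1* -0.03 (adjusted p = 0.689), *pum* -0.01 (adjusted p = 0.911) and *orb2* -0.29 (adjusted p = 0.19). *Rbp9* turned to 0.10 (adjusted p = 0.556). The trend was fitted over all genes with a 3′ UTR, few of which are this long. Whether its removal was complete in the 112 genes was not tested, so part of it may remain in these values. Removing the trend over exon length, which had been planned, also called *fne* (-0.90, adjusted p = 0.0029) and *shep* (-1.07, adjusted p = 0.00734). With all trends left in, both were called when Tet CD replicate 1 was left out (adjusted p = 0.00453 for *fne* and 0.0059 for *shep*), and leaving out any other single library gave adjusted p up to 0.0579 and 0.0707.

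**Figure D4:**
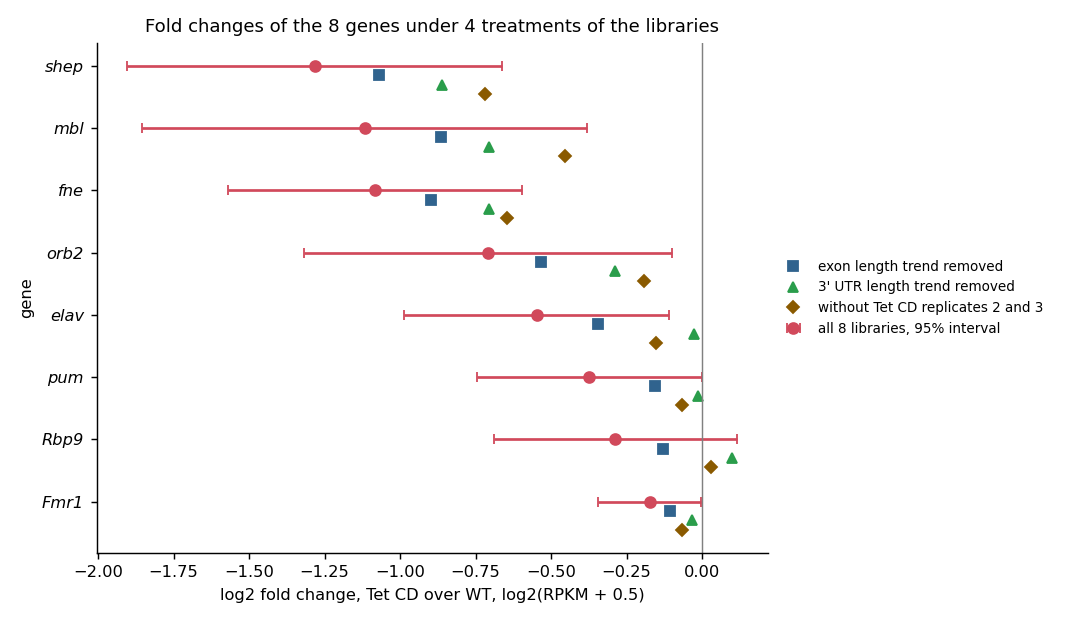
Log2 fold change, Tet CD over WT, of the 8 genes on log2(RPKM + 0.5): all 8 libraries with the 95% interval, with the trends over exon length or 3′ UTR length removed, and without Tet CD replicates 2 and 3. fne and shep stay at or below -0.64 in all of them, whereas elav, pum, Fmr1 and Rbp9 lie between -0.15 and 0.10 without replicates 2 and 3 or without the 3′ UTR trend.

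The genes were also set against *elav*, as a neuronal transcript with a long 3′ UTR, within each library (7 ratios were computed). The ratio of *fne* to *elav* was 0.540, 0.490, 0.436 and 0.452 in Tet CD, against 0.769, 0.689, 0.685 and 0.648 in WT. That of *shep* was 0.697, 0.560, 0.426 and 0.553 in Tet CD, against 1.06, 0.917, 0.897 and 0.826 in WT. Neither ratio overlapped between the groups (log2 differences -0.54 and -0.74, two-sided exact permutation p = 0.0286 each, the smallest possible). The ratio of *Rbp9* was higher in Tet CD, at 0.0316 on average against 0.0274 in WT (log2 difference 0.20, exact permutation p = 0.0286), also without overlap. For *mbl* (-0.64), *orb2* (-0.31), *pum* (0.17) and *Fmr1* (0.38) the ratios overlapped, with exact permutation p between 0.0571 and 0.2. A ratio shows only that 2 genes differed unequally. With 7 ratios, the smallest possible p of this permutation test can pass a Benjamini-Hochberg adjustment at 0.05 only if most ratios reach it. None of the ratios passed, and the number of libraries left little room for any to pass.

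The order of the levels, per length, differed between the groups in part. In Tet CD, *Fmr1* (102 RPKM on average) stood above *elav* (82.1), *shep* (47.1), *pum* (42.9), *fne* (39.7), *mbl* (7.57), *Rbp9* (2.58) and *orb2* (2.41). Only the steps from *fne* to *mbl* and from *mbl* to *Rbp9* had ranges without overlap. In WT, *elav* (116), *Fmr1* (115.5) and *shep* (107) overlapped at the top. They were followed by *fne* (80.7), *pum* (54.3), *mbl* (15.2), *orb2* (3.97) and *Rbp9* (3.17), each without overlap with the next. Thus *orb2* and *Rbp9*, separated in WT, could not be told apart in Tet CD. There *orb2* was the lower in 2 of 4 libraries, replicates 2 and 3, and the higher in replicates 1 and 4, as in WT.

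In the wider lists of neural RNA-binding proteins, partners and known targets, 64 of 68 genes were tested, 1 was called lower and 0 were called higher (limma, with 1.35% and 1.16% of all genes called). At an unadjusted p below 0.05, 21 were lower and 0 higher (13.9% and 14.4% of all genes), and the median log2 fold change of the 64 was -0.12. The called gene was *bru3*, of the CELF family of splicing and translation regulators, with 5.77, 2.52, 1.95 and 4.17 RPKM in Tet CD against 12.1, 10.7, 10.5 and 8.73 RPKM in WT (log2 fold change -1.51, adjusted p = 0.00993). Its call was lost without any 1 library other than Tet CD replicate 1, with adjusted p up to 0.0369. Without Tet CD replicates 2 and 3, *bru3* had -1.01 (adjusted p = 0.0132) and was not called either. *Rbp6*, a Musashi relative, had 17.8, 7.56, 6.10 and 13.7 RPKM in Tet CD and 37.6, 32.7, 31.8 and 26.4 RPKM in WT (-1.58, adjusted p = 0.0127, and -1.01, adjusted p = 0.0102, without Tet CD replicates 2 and 3). Both have 3′ UTRs as long as those of the 8 genes (8845 bases in *bru3*, 6893 in *Rbp6*), and in both the replicates 2 and 3 of Tet CD were again the lowest.

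Of the 21 other neural RNA-binding protein genes tested, 9 were lower at an unadjusted p below 0.05, where 13.9% of all genes were (median log2 fold change -0.21), with *bru1*, the Bruno gene, the highest (0.08). At an adjusted p below 0.05 and a fold above 1.2, 6 of the 21 were lower, where 3.74% of all genes were. Every Tet CD library lay below every WT library for 8 of the 21, against 9.42% of all genes. The partners of Pumilio and the CCR4-NOT deadenylase had 1 of 7 lower, a share near that of all genes (median -0.08), the translational repressor *brat* (-0.89, adjusted p = 0.0588), with the deadenylase *Pop2* the highest (0.05). The partners of FMR1 and the small RNA silencing genes had 4 of 11 lower (median -0.12), from *AGO1*, the Argonaute of microRNAs (-0.78, adjusted p = 0.088), to the helicase gene *me31B* (0.06). The CPEB family and ORB2 partners had 1 of 2 lower, *orb* (-0.63, adjusted p = 0.0876). Of 13 general splicing regulators 3 were lower (median -0.07), with *Sxl*, the sex determination gene, the lowest (-0.52, adjusted p = 0.102). Of 10 known RNA targets 3 were lower (median -0.06), from the sodium channel gene *para*, a target of Pumilio (-0.51, adjusted p = 0.135), to *futsch*, a target of FMR1 (0.08, adjusted p = 0.838). *para* was near the limit for testing, at 0.51 RPKM on average in Tet CD and 0.92 RPKM in WT, with overlapping groups. Its fold change varied with the pseudocount, from -0.79 with 0.1 to -0.35 with 1. The low values among these genes were smaller in size without Tet CD replicates 2 and 3, at -0.36 for *brat* (adjusted p = 0.0211), -0.24 for *AGO1*, -0.27 for *orb*, -0.15 for *Sxl* and -0.33 for *para*. The longest annotated 3′ UTRs ran to 8499 bases in *brat*, 5243 in *orb*, 4753 in *Sxl* and 4585 in *AGO1*. They ran to 1677 bases in *bru1*, 473 in *Pop2* and 124 in *me31B*, but to 4670 in *futsch*. The part of 3′ UTR length in these contrasts was not tested.

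**Figure D5:**
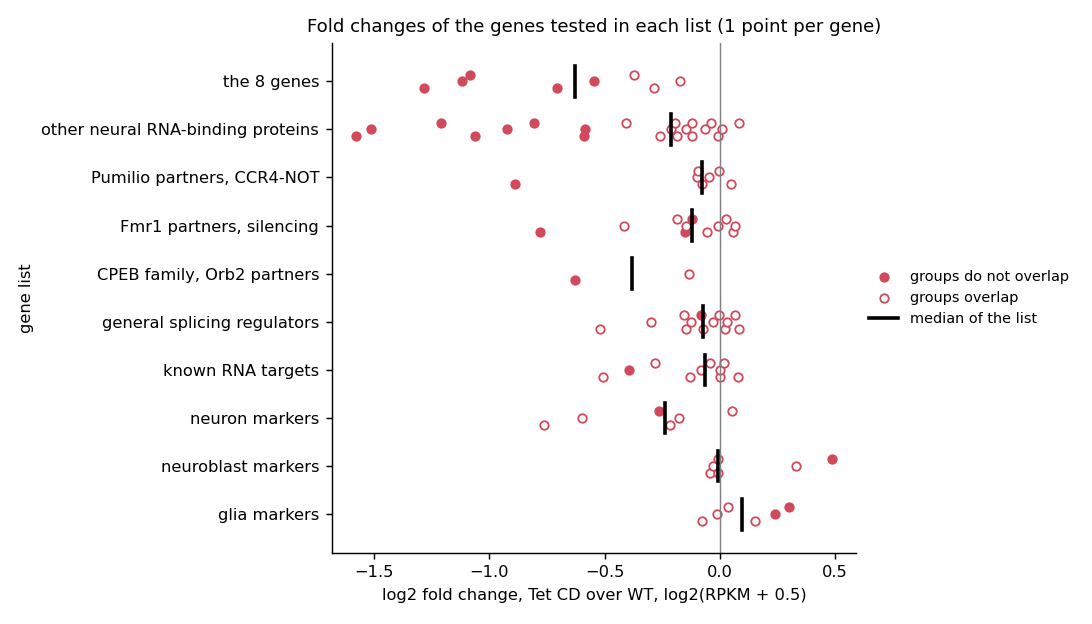
Log2 fold change, Tet CD over WT, of genes tested in lists of RNA-binding proteins, partners, targets, and neuron, neuroblast and glia markers. Each point is 1 gene, filled where the groups do not overlap, and the black line is the median of the list. The 8 genes described here all lie below 0. The other lists of RNA-binding proteins, partners and targets have medians between -0.38 and -0.06. The medians of the neuron, neuroblast and glia markers are -0.24, -0.01 and 0.09.

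*Tet* itself, which keeps its transcript in this allele so that its level does not check the labels, had 81.0, 28.3, 39.2 and 72.4 RPKM in Tet CD, against 76.4, 81.8, 88.8 and 83.4 RPKM in WT (-0.70, limma, adjusted p = 0.153). It was thus lowest in the same Tet CD replicates. Its log2 fold change was -0.43 without replicate 2 and -0.11 without replicates 2 and 3 (adjusted p = 0.412). Of 6 neuron markers, 0 were called and 4 were lower at an unadjusted p below 0.05 (13.9% of all genes). Their median log2 fold change was -0.24. They summed to 219.5 to 313.5 RPKM in Tet CD against 308.1 to 359.5 RPKM in WT, so the sums overlapped. Their longest annotated 3′ UTRs ran to 4391 bases in *brp*, 4011 in *Syt1*, 3631 in *Syn*, 2964 in *VGlut*, 2636 in *nSyb* and 1288 in *Gad1*. In this order the log2 fold changes were -0.76, -0.60, -0.22, -0.26, -0.18 and 0.05. The part of 3′ UTR length in the values of these markers was not tested. By library, the median log2 ratio of the neuron markers to WT was -0.10, -0.60, -0.19 and -0.10 in Tet CD replicates 1 to 4. In the WT replicates it was -0.01, 0.12, -0.0015 and -0.11. Neuroblast markers (median -0.01, 156.7 to 167.9 RPKM in Tet CD against 143.1 to 169.2 RPKM in WT) and glia markers (median 0.09, 301.5 to 360.6 RPKM in Tet CD against 300.4 to 321.5 RPKM in WT) overlapped in their sums. Of the 6 glia markers, however, 2 were higher in Tet CD at an unadjusted p below 0.05 (limma, 14.4% of all genes). These were *nrv2* (0.24, adjusted p = 0.014) and *moody* (0.30, adjusted p = 0.0381). Of the 6 neuroblast markers 2 were also higher at an unadjusted p below 0.05 (14.4% of all genes), *dpn* (0.33, adjusted p = 0.104) and *grh* (0.49, adjusted p = 0.134). The 5 trachea markers were all higher in Tet CD at an unadjusted p below 0.05 (14.4% of all genes), 3 of them with an adjusted p below 0.05 and a fold above 1.2 (4.72% of all genes). They summed to 112.9 to 193.4 RPKM in Tet CD against 45.45 to 101.1 RPKM in WT. Their median log2 ratio to WT came to 1.42, 0.98, 0.65 and 0.57 in Tet CD replicates 1 to 4, so it was highest in replicate 1 and not in replicates 2 and 3. Hemocyte markers summed to 16.11 to 25.51 RPKM in Tet CD against 11.45 to 19.04 RPKM in WT, in which *Pxn* was the most abundant (-0.13, adjusted p = 0.542). The median log2 fold change of the 3 hemocyte markers tested was 1.25. *eater* had 2.10 (adjusted p = 0.0176, no overlap) and *Hml* 1.25 (adjusted p = 0.0544), while *NimC1*, below the limit for testing, averaged 0.792 RPKM in Tet CD and 0.0916 RPKM in WT. These glia and hemocyte markers were named after their values were seen, as were the neuroblast ones. Fat body markers summed to 1.41 to 51.1 RPKM in Tet CD against 0.920 to 22.5 RPKM in WT, and body wall muscle markers to 9.66 to 14.97 RPKM in Tet CD against 8.03 to 11.8 RPKM in WT. For the salivary gland the sums were 1.85 to 10.2 RPKM in Tet CD against 1.67 to 6.99 RPKM in WT, and for the ring gland 138 to 245 RPKM in Tet CD against 92.9 to 264 RPKM in WT. No marker was at 0 in all libraries, and the part of other tissues in the values of the 8 genes was not tested.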

How the data were processed

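RNA-seq of the CNS of larvae of the third instar was used from 4 Tet CD and 4 WT libraries. Before deposit, the authors used Cutadapt for trimming, Hisat2 for alignment to dm6 and HTSeq-Count for counts per gene, and the deposited values are RPKM from Cufflinks. RPKM divides by length and depth, so a count test was not used. The table had 17490 rows, and 4 columns of per-sample values that match no label were not used. Tet null RNA-seq, ChIP-seq and CUT&RUN data were not analysed here.

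The 9357 genes whose mean over the 8 libraries reached 0.5 RPKM were fitted on log2(RPKM + 0.5), a scale that understates changes of low genes, with limma 3.58.1 in R 4.3.3 (trended eBayes, Benjamini-Hochberg over all genes, call at adjusted p below 0.01 and fold above 1.2). Single values were tested by two-sided exact permutation over 70 arrangements. Fits were tested on simulated data. Exon and 3′ UTR lengths came from the Ensembl annotation of dm6, and trends were removed per library by lowess (span 0.3). Depth was estimated from values below 0.3 RPKM, of which 96.1% to 97.1% came to whole reads within 0.01. Summaries used Python 3.11.15, pandas 2.3.3 and scipy 1.17.1.

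The 8 genes and all lists (neural RNA-binding proteins, partners, targets, and markers of neurons and other tissues) were chosen with earlier results of these data known. Named genes were the 8, *Tet*, every called gene of a list of RNA-binding proteins, partners or targets, and the gene with the highest and the gene with the lowest fold change in each; 1 gene that the rule names is not reported here. Alternatives were other pseudocounts, filters, scaling, array weights, a replicate block, exon length and leaving out each library. Trends over exon GC or 3′ UTR length, the block with the length trend and leaving out Tet CD replicates 2 and 3 were added after seeing the data.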

Additional observations from a re-analysis of the deposited data

Results flagged for a closer look

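Over the 4 Tet CD libraries, the median log2 ratio of the fat body markers to their WT mean was 2.73 in replicate 2, against -0.61 to -0.28 in the others, and this library stood apart by Dixon's criterion. It is 1 of the 2 Tet CD libraries in which all 8 neural RNA-binding protein genes were lowest, whereas in replicate 3, the other one, the fat body markers were at -0.61. Of 88 groups of 4 libraries examined, 1 was set apart, where chance gives about 4.4.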

How the results depend on the processing

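Over 21 alternatives, the 8 genes all stayed below 0 in 19, and none of the 8 was called in 13. The number called lower was 7 with array weights, 2 with the exon length trend removed, 1 with the exon GC trend removed, 2 with the 3′ UTR length trend removed, 2 with the replicate block and the length trend, 1 without Tet CD replicates 2 and 3, 2 at an adjusted p below 0.05, and 0 to 2 with single libraries left out (2 without Tet CD replicate 1). The 2 exceptions in direction were *Rbp9*, at 0.10 with the 3′ UTR trend removed and 0.03 without Tet CD replicates 2 and 3. Among all genes, 109 were called higher and 126 lower. Array weights gave 826 and 1024, the adjusted p below 0.05 gave 442 and 350, and single libraries left out gave 51 to 203 and 70 to 203. For higher calls the exon length trend gave 176 and leaving out Tet CD replicates 2 and 3 gave 42. In the wider lists the 1 lower call became 0 with a pseudocount of 0.1, no filter, a mean of at least 2 RPKM, median-of-ratios scaling or the block, 19 with array weights, 3 each with the exon length, GC and 3′ UTR trends, 2 with the block and the length trend, 6 at an adjusted p below 0.05 and 0 to 5 with single libraries left out. The 0 higher calls became 1 with the exon length trend (*futsch*). *Tet* had -1.01 with array weights and was called. These weights were 6.32 for Tet CD replicate 3 and 0.318 to 0.399 for the other Tet CD libraries, so the counts with array weights rest mostly on that library. Signs turned for *bru1* (-0.0016 without Tet CD replicate 4, up to 0.19 without replicate 2), *futsch* (-0.0715 without Tet CD replicate 1, up to 0.309 without replicate 2) and *me31B* (-0.0105 without Tet CD replicates 2 and 3). The causes of these shifts were not tested. Replicate numbers are shared by the genotypes. The correlations of same-numbered deviations were 0.24, -0.19, 0.04 and -0.10. The WT library of the same number was the best match for replicates 1 and 3, but not for replicates 2 and 4. The numbers were not taken to pair libraries in the main fit. With the replicate block there were 51 higher and 60 lower calls and no call among the 8 genes.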
